A study of Mus musculus with 47 samples.

Results

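The subject is 10 chemokine ligand genes, Ccl2, Ccl7, Ccl12, Ccl3, Ccl4, Ccl6, Cxcl1, Cxcl2, Cxcl10 and Cxcl16, in cultured mouse microglia. They were taken by symbol from the 53697 genes of the deposited table, and each of the 10 was among the 10894 genes that were abundant enough to be tested. Microglia, the resident macrophages of the brain, were grown from forebrain in DMEM with serum. Wild-type cells (WT) came from C57BL/6 mice of the Jackson Laboratory. E3 and E4 cells came from Taconic lines in which both alleles of mouse Apoe are replaced by human APOE3 or APOE4. Het and KO cells carried 1 or 2 disrupted Apoe alleles and came from another Jackson line. Cells of each genotype were left alone for 24 h or were exposed for 3 h to myelin, the membrane that wraps axons, and harvested 21 h after that. The 47 libraries made 10 groups of 5, except for 4 in both E3 groups and in Het with myelin. Ages are not given in the labels, and the labels do not tie replicates to different animals, so each p-value reflects variation among these libraries that may be technical. Genotype, source line and culture cannot be told apart.

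Chemokines are small secreted proteins that draw leukocytes along a gradient by binding receptors with 7 membrane passes. Ligands named Ccl carry adjacent cysteines near the amino end, and ligands named Cxcl have 1 residue between them. In the brain, microglia are a source of several of them after injury or infection. Ccl2, Ccl7 and Ccl12 are monocyte attractants that act on Ccr2. Ccl3 and Ccl4 are macrophage inflammatory proteins that attract monocytes and T cells, Ccl3 in part through Ccr1, and Ccl6 is a rodent ligand of Ccr1. Cxcl1 and Cxcl2 attract neutrophils through Cxcr2. Cxcl10 is an interferon-induced ligand of Cxcr3 on T cells. Cxcl16 is made as a membrane protein that binds Cxcr6 and is shed by the proteases Adam10 and Adam17.

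The members lie in a few clusters of the mm10 genome, and the identifiers of all 10 with their versions were found in the GENCODE annotation of that build. Ccl2 (ENSMUSG00000035385.5, 82035571 to 82037453), Ccl7 (ENSMUSG00000035373.2, 82045712 to 82047525) and Ccl12 (ENSMUSG00000035352.3, 82101845 to 82103400) stand on the plus strand within 67.8 kb of chromosome 11. Ccl6 (ENSMUSG00000018927.3, 83587882 to 83593087, minus strand), Ccl3 (ENSMUSG00000000982.5, 83647844 to 83649355, minus) and Ccl4 (ENSMUSG00000018930.3, 83662584 to 83664683, plus) share 76.8 kb of the same chromosome. Cxcl16 (ENSMUSG00000018920.11) lies apart from them at 70453983 to 70459984 on the minus strand. Cxcl1 (ENSMUSG00000029380.11, 90891241 to 90893115) and Cxcl2 (ENSMUSG00000058427.10, 90903871 to 90905938) are plus-strand neighbours within 14.7 kb of chromosome 5. Cxcl10 (ENSMUSG00000034855.13, 92346638 to 92348889, minus) is on chromosome 5 as well.

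Promoter windows from 250 bases before to 50 bases after the start were in the RefSeq table (GRCm38.p6) for 6 members, Cxcl1, Cxcl2, Cxcl10, Ccl12, Ccl6 and Ccl3. Both strands were searched for an NF-kB core, spelled GGGA and TCC with any 3 bases between them, and an interferon response element, spelled GAAA and GAAA with any 2 bases between them. Stretches are shown for the 3 promoters that held a match, those of Cxcl1, Cxcl2 and Cxcl10. Capitals mark the matches.
Cxcl1 promoter, chr5:90891149-90891209, plus strand: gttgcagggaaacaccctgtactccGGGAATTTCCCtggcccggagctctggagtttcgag
Cxcl2 promoter, chr5:90903777-90903837, plus strand: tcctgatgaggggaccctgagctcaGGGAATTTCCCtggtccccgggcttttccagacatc
Cxcl10 promoter, chr5:92349014-92349127, minus strand: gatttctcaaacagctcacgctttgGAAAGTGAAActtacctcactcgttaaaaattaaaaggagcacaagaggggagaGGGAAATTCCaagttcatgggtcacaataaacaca

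Cxcl1 and Cxcl2 hold the same NF-kB letters, GGGAATTTCC, from 71 to 62 and from 97 to 88 bases before the start, and the minus strand matches 1 base further on, so that 11 bases are in capitals. Cxcl10 holds GAAAGTGAAA from 213 to 204 and GGGAAATTCC from 159 to 150 bases before its start. The windows of Ccl12, Ccl6 and Ccl3 held neither string of letters. Of 32851 mouse promoter windows in the table, 4.593% held the NF-kB letters, 3.443% held the interferon letters and 0.149%, or 49, held both. A match describes letters in a window and does not show that a factor binds there.

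Values are scaled TPM, the deposited transcript abundances (TPM) rescaled so that nuclear protein-coding genes share 1000000 in each library and then adjusted by a trimmed mean of log ratios. This unit is per transcript length, so levels of different genes can be set beside each other roughly. Differences between genes in amplification or coverage were not assessed. The read depth is unknown. Protein-coding genes held a mean of 12.1% to 23.4% of the deposited TPM in the groups other than Het, and 10.7% and 7.25% in untreated and myelin-treated Het cells, where 4 of 9 libraries were under 6%. Most of the rest lay on 1 gene outside the coding set, Gm23935. Outside Het it held from 69.4% of TPM (WT untreated replicate 4) to 91.5% (E4 untreated replicate 1). In Het untreated replicate 5 it held 98.99%. Apoe in untreated KO cells was lower than in WT (difference of mean log2 levels -9.57, two-sided exact permutation p = 0.00794, the smallest that 5 against 5 libraries allow), which fits the labels. The 10 microglia markers, Cx3cr1, P2ry12 and Tmem119 among them, were present in each group and summed to means of 9997 ± 997 scaled TPM in untreated E3 cells and 16728 ± 624 in KO cells after myelin, the lowest and highest of the groups. Markers of other cells were also found. Astrocyte markers summed to 148 ± 9.81 in untreated WT, 1063 ± 78.4 in E3, 2225 ± 484 in E4 and 99.1 ± 16.7 in KO cells, and fibroblast and pericyte markers to 929 ± 151, 458 ± 78.9, 161 ± 32.96 and 171 ± 269. In such bulk RNA, fewer cells of a type and less RNA per cell cannot be told apart.

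The ligands spanned more than a factor of 10 in level within a group. In untreated WT cells the order ran from Ccl3 (518 ± 62.8 scaled TPM, SD, n = 5) through Cxcl2 (439 ± 67.6), Cxcl16 (392 ± 21.4) and Ccl4 (352 ± 40.1) to Ccl6 (185 ± 29.1), Ccl2 (169 ± 28.2), Ccl7 (83.4 ± 14.8), Cxcl1 (57.6 ± 8.81), Ccl12 (22.00 ± 1.73) and Cxcl10 (9.44 ± 2.84). Among the 4 most abundant ligands, those next to each other in this order overlapped in range. The lowest Ccl3 library (426.5) was above the highest for Cxcl16 (413.8) and for Ccl4 (397.7). Ccl6 and Ccl2 also overlapped, and so did Ccl7 and Cxcl1, whereas each library had less Ccl12 than Cxcl1 and less Cxcl10 than Ccl12. In untreated E4 cells Ccl4 stood highest at 735 ± 54.02 scaled TPM, and in KO cells Cxcl16 did at 437 ± 12.2 and Cxcl10 was lowest at 2.73 ± 1.36. The plot of single libraries sets the 10 genes side by side.

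**Figure D1:**
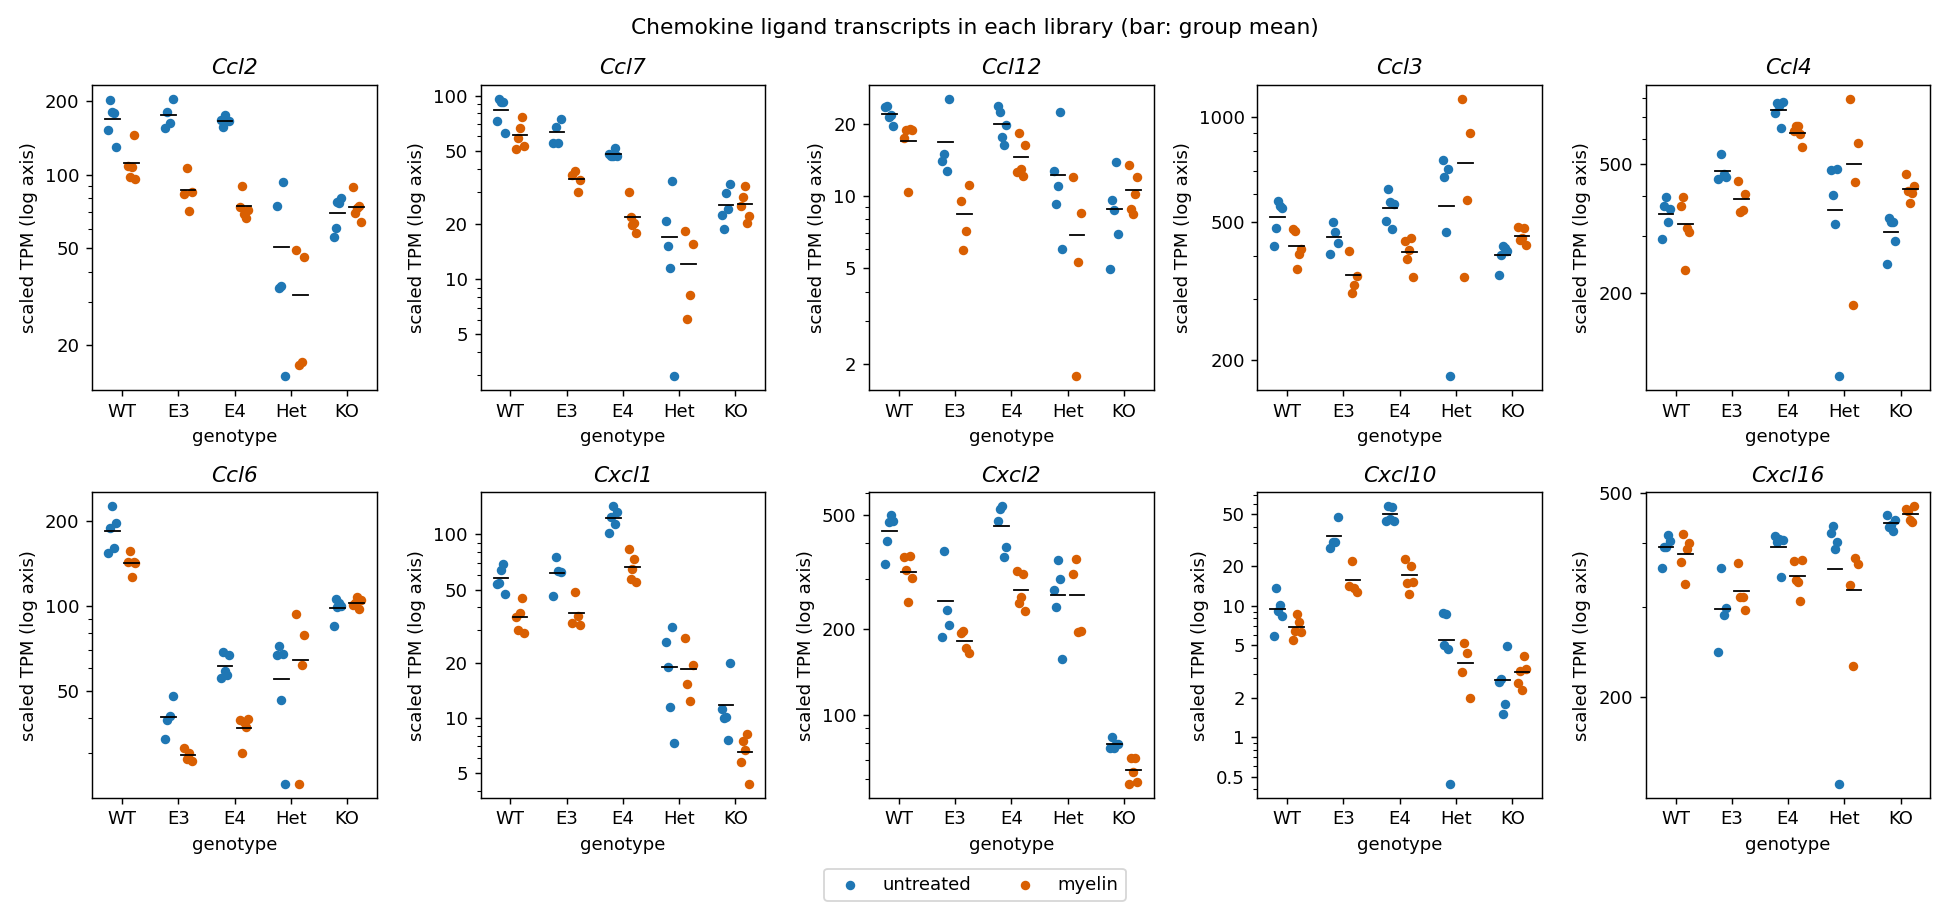
Scaled TPM (log axis) of each chemokine ligand in every library by genotype, untreated in blue and after myelin in orange, with a bar at each group mean. Ccl2 in E4 lies between 157 and 176 untreated and between 66.5 and 89.6 after myelin, and Cxcl2 in untreated KO cells lies between 77.1 and 83.7. The axes differ between panels.

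After myelin several ligands were lower in WT, E3 and E4 cells, and the monocyte attractant Ccl2 passed the test in each of these 3. In WT cells 4 of 10 ligands fell and 0 rose, where 6.5% of all tested genes changed and 0.945% fell. In E3 cells 7 fell and 0 rose, against 7.37% changed and 2.78% lower over all genes, and in E4 cells 7 fell and 0 rose, against 14.1% and 4.59%. In KO cells 1 rose and 1 fell, where 3.84% of all genes changed. The median log2 fold change of the 10 ligands was -0.38 in WT, -0.57 in E3, -0.72 in E4 and 0.08 in KO, beside -0.03, 0.01, 0.03 and 0.04 over all tested genes. Treated and untreated groups did not overlap for 2 ligands in WT, 6 in E3, 7 in E4 and 3 in KO, where this held for 2.59%, 16.8%, 10.4% and 6.61% of all genes. This share is given only for these responses and for E4 against E3 untreated. Elsewhere a lack of overlap describes the libraries alone. With libraries scaled to the coding total alone, 747 of 1482 called genes rose in E4 in place of 1039 of 1539, 341 of 718 in E3 in place of 500 of 803, and 124 of 311 in KO in place of 238 of 418. Adjusted p-values are from limma with Benjamini-Hochberg adjustment over all 10894 genes at a threshold of 0.05, and a fold change is a difference of log2(scaled TPM + 1), so that it is too small for genes of low level.

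Ccl2, the main monocyte attractant of the group, separated treated from untreated cells in both humanized lines. In E4 cells the untreated libraries held 167, 157, 176, 167 and 166 scaled TPM and the myelin libraries 73.5, 89.6, 68.9, 66.5 and 71.9. In E3 cells the values were 155, 182, 163 and 205 before and 83.2, 107, 71.1 and 85.1 after myelin. The groups did not overlap in either genotype, and Ccl2 fell in E4 (log2 fold change -1.17, SE 0.12, adjusted p = 2.74e-08) and in E3 (log2 fold change -1.02, SE 0.14, adjusted p = 1.27e-05). WT cells held 152, 202, 181, 179 and 129.5 untreated and 109, 97.9, 108, 146 and 96.1 with myelin. Here myelin replicate 4 reached into the untreated range and the fall was smaller (log2 fold change -0.60, SE 0.12, adjusted p = 0.00253). KO cells were low from the start, at 55.5, 60.3, 77.02, 76.4 and 80.4 untreated and 88.7, 69.8, 73.03, 74.2 and 64.2 after myelin, with overlapping groups (log2 fold change 0.09, SE 0.12, adjusted p = 0.777).

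Its cluster neighbour Ccl7, which also acts on Ccr2 and on Ccr1, went the same way in the humanized lines. E4 libraries held 47.8, 46.9, 47.1, 52.2 and 46.98 scaled TPM untreated and 29.9, 21.8, 19.8, 20.2 and 17.8 after myelin. E3 libraries held 55.5, 67.6, 55.6 and 74.5 and 36.7, 39.05, 29.8 and 34.6. Every myelin library was under every untreated one in both, and Ccl7 fell in E4 (log2 fold change -1.12, SE 0.14, adjusted p = 1.07e-06) and E3 (log2 fold change -0.83, SE 0.16, adjusted p = 0.002). WT libraries ran from 62.5 to 96.2 untreated and from 50.9 to 76.2 with myelin, which missed the threshold (log2 fold change -0.44, SE 0.14, adjusted p = 0.0578) but passed without WT untreated replicate 1 or 5 or WT myelin replicate 4 (adjusted p = 0.029 to 0.0411). KO libraries ran from 18.8 to 32.9 and from 20.3 to 32.1, with no difference that passed (log2 fold change 0.01, SE 0.14, adjusted p = 0.981).

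Ccl12, the other Ccr2 ligand of this cluster, had the lowest mean of the 3 in each of the 10 groups. E3 cells held 13.95, 14.9, 12.8 and 25.4 scaled TPM untreated and 9.54, 5.98, 7.14 and 11.1 with myelin, without overlap, and Ccl12 fell (log2 fold change -0.89, SE 0.22, adjusted p = 0.0116). That call was lost without E3 untreated replicate 4 or E3 myelin replicate 3 (adjusted p = 0.0607 to 0.0626). In E4 the ranges of 16.4 to 23.7 and 12.1 to 18.3 overlapped (log2 fold change -0.44, SE 0.19, adjusted p = 0.121). Ccl12 did not pass in WT, where the groups were apart (log2 fold change -0.39, SE 0.19, adjusted p = 0.246), or in KO (log2 fold change 0.29, SE 0.19, adjusted p = 0.474).

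Ccl6, the rodent Ccr1 ligand, fell in WT, E3 and E4 cells. WT cells held 154, 189.7, 226, 160.0 and 196 scaled TPM untreated and 143, 156, 126, 144 and 142 with myelin, where the highest myelin library reached just above the lowest untreated one, and Ccl6 fell (log2 fold change -0.37, SE 0.09, adjusted p = 0.0111). E3 cells held 33.6, 39.3, 40.7 and 47.8 and 31.3, 28.5, 30.2 and 28.1. E4 cells held 55.5, 68.8, 58.6, 56.9 and 66.8 and 39.2, 30.2, 38.6, 37.2 and 39.8. Neither pair of groups overlapped, and Ccl6 fell in E3 (log2 fold change -0.43, SE 0.10, adjusted p = 0.0116) and in E4 (log2 fold change -0.71, SE 0.09, adjusted p = 1.34e-06). The call was lost in WT without WT untreated replicate 3 (adjusted p = 0.0561) and in E3 without E3 untreated replicate 4 (adjusted p = 0.0545). KO libraries ran from 84.7 to 106 untreated and from 97.6 to 107 with myelin (log2 fold change 0.06, SE 0.09, adjusted p = 0.786).

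Ccl3 and Ccl4, divergent neighbours that encode macrophage inflammatory proteins, were abundant and moved less. Ccl3 fell in E4 from a range of 477 to 620.0 scaled TPM to 347 to 451 (log2 fold change -0.42, SE 0.09, adjusted p = 0.00167). It fell in E3 from 405 to 500.1 to 312 to 412 (log2 fold change -0.37, SE 0.10, adjusted p = 0.024), a call that was lost without E3 untreated replicate 2 or 3 or E3 myelin replicate 2 or 3 (adjusted p = 0.0508 to 0.105). In WT it missed the threshold (log2 fold change -0.27, SE 0.09, adjusted p = 0.0656) and passed without WT untreated replicate 1 or WT myelin replicate 2 (adjusted p = 0.0132 to 0.0336). Ccl4 was the 1 ligand that rose anywhere with myelin. KO libraries held 246, 341, 332, 331 and 290.1 untreated and 466, 415, 381, 408 and 429.9 after myelin, so that every treated library was above every untreated one (log2 fold change 0.45, SE 0.10, adjusted p = 0.00728). Ccl4 in WT, E3 and E4 had log2 fold changes of -0.12, -0.29 and -0.23, none of which passed (adjusted p = 0.529, 0.105 and 0.131), although the E3 groups did not overlap. Ccl3 in KO was apart as well, on the higher side, without a call (log2 fold change 0.18, SE 0.09, adjusted p = 0.294).

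The neutrophil attractant Cxcl1 passed the test in all 4 genotypes. WT cells held 53.9, 54.2, 63.6, 69.3 and 47.01 scaled TPM untreated and 35.6, 29.99, 37.4, 44.9 and 29.1 after myelin. E4 cells held 102, 125, 142, 114 and 132 and 83.3, 56.9, 64.9, 73.8 and 55.03. Both pairs of groups were apart, with log2 fold change -0.69, SE 0.18, adjusted p = 0.0117 in WT and log2 fold change -0.88, SE 0.18, adjusted p = 0.000729 in E4. E3 cells held 45.9, 75.3, 62.97 and 61.97 and 32.7, 48.5, 36.02 and 32.2. KO cells held 11.1, 9.98, 10.2, 7.56 and 19.9 and 5.76, 7.50, 6.64, 8.17 and 4.36. These groups overlapped, and Cxcl1 fell in E3 (log2 fold change -0.70, SE 0.20, adjusted p = 0.0249) and KO (log2 fold change -0.72, SE 0.18, adjusted p = 0.0122). Single libraries decided some of these calls. In WT the call was lost without WT untreated replicate 4 (adjusted p = 0.0608), in E3 without E3 untreated replicate 2 or 4 or E3 myelin replicate 1, 3 or 4 (adjusted p = 0.0505 to 0.1) and in KO without KO untreated replicate 5 or KO myelin replicate 5 (adjusted p = 0.0627 to 0.0651).

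Cxcl2, which shares the receptor Cxcr2 with Cxcl1 and was the more abundant of the pair, fell in E4 and WT. E4 libraries held 479.9, 525, 538, 358 and 387 scaled TPM untreated and 321, 246, 259, 311 and 231 after myelin, without overlap (log2 fold change -0.73, SE 0.14, adjusted p = 0.000387). WT libraries held 337, 406, 476, 502 and 477 and 359, 321, 249, 359.8 and 301, where untreated replicate 1 lay among the treated ones (log2 fold change -0.46, SE 0.14, adjusted p = 0.0359). The WT call was lost without WT untreated replicate 3, 4 or 5 or WT myelin replicate 3 or 5 (adjusted p = 0.0704 to 0.139). E3 libraries held 187, 375, 234 and 207 and 193, 198, 173 and 165, with untreated replicate 2 far above the others (log2 fold change -0.41, SE 0.16, adjusted p = 0.0904). KO libraries held 77.1, 83.7, 77.1, 79.3 and 79.4 and 57.5, 71.1, 63.1, 70.96 and 58.5, apart but with no call (log2 fold change -0.31, SE 0.14, adjusted p = 0.239).

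Cxcl10, the interferon-induced ligand of Cxcr3, fell in E4 and in E3 cells. E4 cells held 44.3, 57.1, 45.7, 56.7 and 44.5 scaled TPM untreated and 22.9, 14.8, 12.4, 19.97 and 15.1 after myelin. E3 cells held 27.3, 30.7, 30.3 and 47.2 and 14.03, 21.8, 13.7 and 12.7. In both lines every treated library was under every untreated one, and Cxcl10 fell in E4 (log2 fold change -1.51, SE 0.20, adjusted p = 2e-06) and E3 (log2 fold change -1.07, SE 0.22, adjusted p = 0.00403). WT cells held far less, 5.89, 13.7, 9.08, 10.2 and 8.38 untreated and 5.46, 6.42, 8.69, 7.49 and 6.31 with myelin (log2 fold change -0.38, SE 0.20, adjusted p = 0.279). KO cells held 1.49 to 4.96 and 2.29 to 4.17 (log2 fold change 0.19, SE 0.20, adjusted p = 0.69). Cxcl16, the membrane-anchored ligand, passed in none of the 4 genotypes. Its log2 fold changes were -0.04 in WT, 0.12 in E3, -0.19 in E4 and 0.06 in KO, with adjusted p = 0.802, 0.356, 0.081 and 0.732, and the E4 value passed without E4 untreated replicate 4 (adjusted p = 0.0285).

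**Figure D2:**
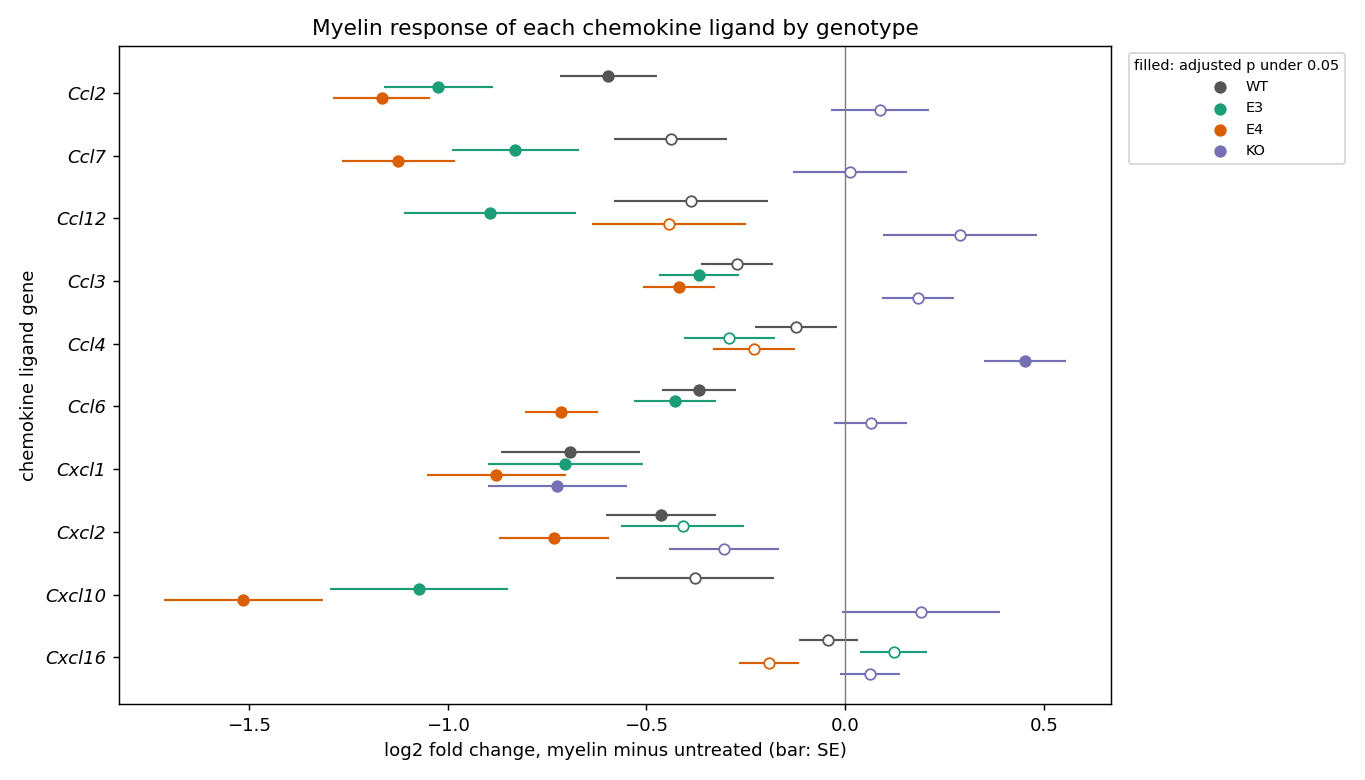
Log2 fold change of each ligand between myelin-treated and untreated cells (x axis, with SE bars) in WT, E3, E4 and KO, with filled points where the adjusted p is under 0.05. Ccl2 lies at -1.17 in E4 and 0.09 in KO, Cxcl10 at -1.51 in E4, and Ccl4 in KO is the filled point on the side of a rise.

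These counts depend on how the spread was estimated. When the 9 Het libraries, which vary widely, were added to one unweighted fit, 0 ligands passed in WT, E3 and KO and 5 passed in E4. Leaving out single libraries gave 2 ligands in WT without untreated replicate 3 or 4, 4 in E3 without untreated replicate 4 or myelin replicate 3, and 1 in KO without untreated or myelin replicate 5. Of the marker lists, 0 of 8 astrocyte markers and 0 of 5 tested fibroblast and pericyte markers passed the test with myelin in E3 or E4. The median log2 fold change of the fibroblast and pericyte markers was nevertheless -0.81 in E3 and -0.40 in E4. That of the astrocyte markers was -0.13 and -0.04. Of 10 microglia markers 1 rose and 4 fell in E4 and 1 rose and 1 fell in E3, 2 of 3 tested border macrophage and monocyte markers fell in WT, and 3 of 8 astrocyte markers fell in KO. Of 3 tested endothelial markers 2 fell in E4 (median log2 fold change -0.63) and 1 in E3 (-0.40), and 2 of 3 neuron markers fell in KO (-0.52). Single markers rose in WT (astrocyte), E3 (oligodendrocyte) and KO (microglia, border macrophage and T cell). Fibroblast and pericyte markers summed to 458 ± 78.9 scaled TPM before and 262 ± 57.5 after myelin in E3. The E3 libraries ran from 354 to 525 and from 192 to 332, without overlap. In E4 the sums were 161 ± 32.96 and 123 ± 11.4, with overlap. The part of these cells in the ligand responses was not tested. The coding share of the libraries rose from 12.1% to 18.6% in E4, and its part in the result was not tested beyond a fit that held it as a covariate. That fit, chosen after seeing the data, left the Ccl2, Ccl7 and Cxcl10 calls in E3 and E4.

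Whether the responses differed between genotypes was tested directly, and each value is then a difference of log2 fold changes. Between E4 and E3, 0 of 10 ligands passed, and 0.00918% of all genes, or 1 gene, did. The difference for Cxcl10 was -0.44 (95% interval -1.03 to 0.15), for Ccl2 -0.14 (-0.50 to 0.22) and for Cxcl16 -0.31 (-0.53 to -0.09, adjusted p = 0.717). The first 2 intervals include 0. Without adjustment, 2 ligands had p under 0.05. Between E3 and WT 0 ligands passed as well, where 4.51% of all genes did, and 2 had an unadjusted p under 0.05.

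Between E4 and WT 3 ligands passed, each with the deeper fall in E4, where 6.97% of all genes passed and 1.97% were lower. They were Cxcl10 (difference -1.14, SE 0.28, adjusted p = 0.0132), Ccl7 (difference -0.68, SE 0.20, adjusted p = 0.0351) and Ccl2 (difference -0.57, SE 0.17, adjusted p = 0.0397). Ccl2 was lost without WT untreated replicate 1, 4 or 5 or WT myelin replicate 1, 3 or 4 or E4 untreated replicate 1 or 3 or E4 myelin replicate 1, 3, 4 or 5 (adjusted p = 0.0529 to 0.0952), and Ccl7 without WT untreated replicate 5 or WT myelin replicate 3 or 4 or E4 untreated replicate 1 or E4 myelin replicate 3, 4 or 5 (adjusted p = 0.0567 to 0.0868). Ccl6 passed without WT untreated replicate 3 (adjusted p = 0.0411). With the coding share as a covariate 0 of the 3 passed, and the values were -0.96, -0.57 and -0.40 with adjusted p = 0.179, 0.292 and 0.398. Between KO and WT 4 ligands passed, each on the higher side in KO, where 5.71% of all genes passed and 3.17% were higher. They were Ccl2 (difference 0.68, SE 0.17, adjusted p = 0.0217), Ccl4 (difference 0.58, SE 0.15, adjusted p = 0.0217), Ccl3 (difference 0.46, SE 0.13, adjusted p = 0.0336) and Ccl6 (difference 0.43, SE 0.13, adjusted p = 0.0442). Ccl3 was lost without WT untreated replicate 3, 4 or 5 or WT myelin replicate 3 or KO untreated replicate 1 or 2 or KO myelin replicate 1 (adjusted p = 0.0551 to 0.0763). Ccl6 was lost without WT untreated replicate 2, 3 or 5 or WT myelin replicate 1 or 3 or KO untreated replicate 1, 2, 3 or 5 or KO myelin replicate 1, 2, 3 or 5 (adjusted p = 0.0548 to 0.0867), and Ccl12 passed without KO untreated replicate 4 (adjusted p = 0.0463). With the coding total alone 2 of the 4 passed, and 64 of 192 called genes were higher in place of 345 of 622. For E4 and WT that scaling gave 277 of 506 in place of 544 of 759. In the unweighted fit of 47 libraries 0 ligands passed in any of these differences. The WT libraries are shared by these comparisons, so they are not independent of each other.

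Other genes of the chemokine system were taken from lists. Their counts stand beside 6.5% of all genes changed with myelin in WT, 7.37% in E3, 14.1% in E4 and 3.84% in KO. Of 8 tested further ligands, 1 rose and 2 fell in WT with myelin, 0 and 1 in E3, 0 and 2 in E4, and 0 changed in KO. Ccl9, a Ccr1 ligand next in kind to Ccl6, fell in WT (log2 fold change -0.42, SE 0.12, adjusted p = 0.0215), E3 (log2 fold change -0.57, SE 0.13, adjusted p = 0.00852) and E4 (log2 fold change -0.74, SE 0.12, adjusted p = 3.61e-05). The platelet factor gene Pf4 fell in WT (log2 fold change -0.63, SE 0.12, adjusted p = 0.00159) and E4 (log2 fold change -0.47, SE 0.12, adjusted p = 0.00845), and Cxcl14 rose in WT (log2 fold change 1.11, SE 0.20, adjusted p = 0.00121). Of 7 tested receptors, 1 fell in WT, 0 in E3, 3 in E4 and 0 in KO. Ccr1, the receptor of Ccl3 and Ccl6, fell in WT (log2 fold change -0.60, SE 0.13, adjusted p = 0.00399). The fractalkine receptor Cx3cr1 fell in E4 (log2 fold change -0.38, SE 0.11, adjusted p = 0.0159). Receptors of several of the ligands were barely present. Ccr2 had a mean of 0.677 scaled TPM in untreated WT, Cxcr2 0.198, Cxcr3 2.23 and Cxcr6 1.68, each too low to be tested.

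Lists of NF-kB, cytokine and interferon genes, which hold regulators and also genes that these induce, moved unevenly with myelin. Over all genes 6.5% changed in WT, 7.37% in E3, 14.1% in E4 and 3.84% in KO. A share near these says nothing of a list. Of 19 tested NF-kB and cytokine genes, 1 rose and 2 fell in WT, 0 and 1 in E3, 1 and 5 in E4, and 0 changed in KO. Il1b, which encodes interleukin 1 beta, fell in WT (log2 fold change -0.56, SE 0.17, adjusted p = 0.0462), E3 (log2 fold change -1.09, SE 0.19, adjusted p = 0.000925) and E4 (log2 fold change -1.29, SE 0.17, adjusted p = 2.67e-06). Il1a was the 1 that rose in E4 (log2 fold change 0.59, SE 0.17, adjusted p = 0.0206), and Nfkbia, a gene that NF-kB induces and whose protein restrains it, fell there (log2 fold change -0.36, SE 0.10, adjusted p = 0.00957). Tnf had a log2 fold change of -0.03 in E4 (adjusted p = 0.891). Of 17 tested interferon genes, 0 rose in any of the 4 genotypes, 1 fell in WT, 2 in E4 and 0 in E3 and KO. Irf7, a factor that drives interferon genes, fell in E4 (log2 fold change -0.76, SE 0.24, adjusted p = 0.0317). The 2 proteases that shed Cxcl16 did not pass in E4 or E3, with log2 fold changes of 0.13 for Adam10 and 0.22 for Adam17 in E4. Mmp12, a metalloprotease that trims several of these ligands, rose in E4 (log2 fold change 0.65, SE 0.15, adjusted p = 0.0036), and Mmp2 fell in E3 (log2 fold change -0.70, SE 0.20, adjusted p = 0.0259).

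At rest, E4 cells held more of 6 of the 10 ligands than E3 cells and less of 0, where 18.6% of all genes differed and 7.49% were higher in E4. The neutrophil attractants differed most. Cxcl1 was higher in each of the 5 E4 libraries than in any E3 library (log2 fold change 0.999, SE 0.19, adjusted p = 0.00014), at means of 123 ± 15.6 and 61.5 ± 12.1 scaled TPM. Cxcl2 was higher as well (log2 fold change 0.90, SE 0.15, adjusted p = 2.31e-05), at 457 ± 81.4 and 251 ± 85.1, although E3 replicate 2 lay within the E4 range. Ccl4 was apart in the 2 groups, with 449, 540.2, 469 and 456 scaled TPM in E3 and 721, 773, 757, 647 and 778 in E4 (log2 fold change 0.62, SE 0.11, adjusted p = 6.91e-05). Ccl6 was apart too (log2 fold change 0.60, SE 0.10, adjusted p = 2.39e-05).

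Cxcl16 held 245, 358, 289 and 298 scaled TPM in untreated E3 and 412, 401, 407, 343 and 405 in E4, where E3 replicate 2 reached above E4 replicate 4 (log2 fold change 0.41, SE 0.08, adjusted p = 0.000235). Ccl3 was the smallest of the differences that passed (log2 fold change 0.27, SE 0.10, adjusted p = 0.0424) and was lost without E3 untreated replicate 1, 3 or 4 or E4 untreated replicate 2, 3 or 5 (adjusted p = 0.0586 to 0.164). Groups did not overlap for 4 ligands, where this held for 17.1% of all genes. The monocyte attractants did not pass, with -0.07 for Ccl2 (95% interval -0.33 to 0.18), -0.38 for Ccl7 (-0.67 to -0.08), whose groups were apart, and 0.28 for Ccl12 (-0.12 to 0.68). Cxcl10 missed the threshold (log2 fold change 0.56, SE 0.21, adjusted p = 0.06) and passed without E3 untreated replicate 4 (adjusted p = 0.0218).

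After myelin, 5 ligands were higher in E4 than in E3 and 1 was lower, where 12.6% of all genes differed. Cxcl1 (log2 fold change 0.82, SE 0.19, adjusted p = 0.00198), Ccl4 (log2 fold change 0.68, SE 0.11, adjusted p = 2.75e-05) and Cxcl2 (log2 fold change 0.57, SE 0.15, adjusted p = 0.00678) were higher without overlap. Ccl12 was higher, also without overlap, at 14.5 ± 2.68 scaled TPM against 8.45 ± 2.32 (log2 fold change 0.73, SE 0.21, adjusted p = 0.0143), a call lost without E3 myelin replicate 2 (adjusted p = 0.093). How often all genes lack overlap after myelin is not given, so the lack of overlap describes these libraries alone. Ccl6 was higher (log2 fold change 0.31, SE 0.10, adjusted p = 0.03) and was lost without E3 myelin replicate 2 or 4 or E4 myelin replicate 1, 3 or 5 (adjusted p = 0.0647 to 0.0926). Ccl7 was the lower one (log2 fold change -0.67, SE 0.15, adjusted p = 0.00209), at 21.9 ± 4.69 against 35.1 ± 3.93. Ccl3 missed the threshold (adjusted p = 0.134) and passed without E3 myelin replicate 1 (adjusted p = 0.0424). In the unweighted fit of 47 libraries 2 ligands passed at rest and 0 after myelin.

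**Figure D3:**
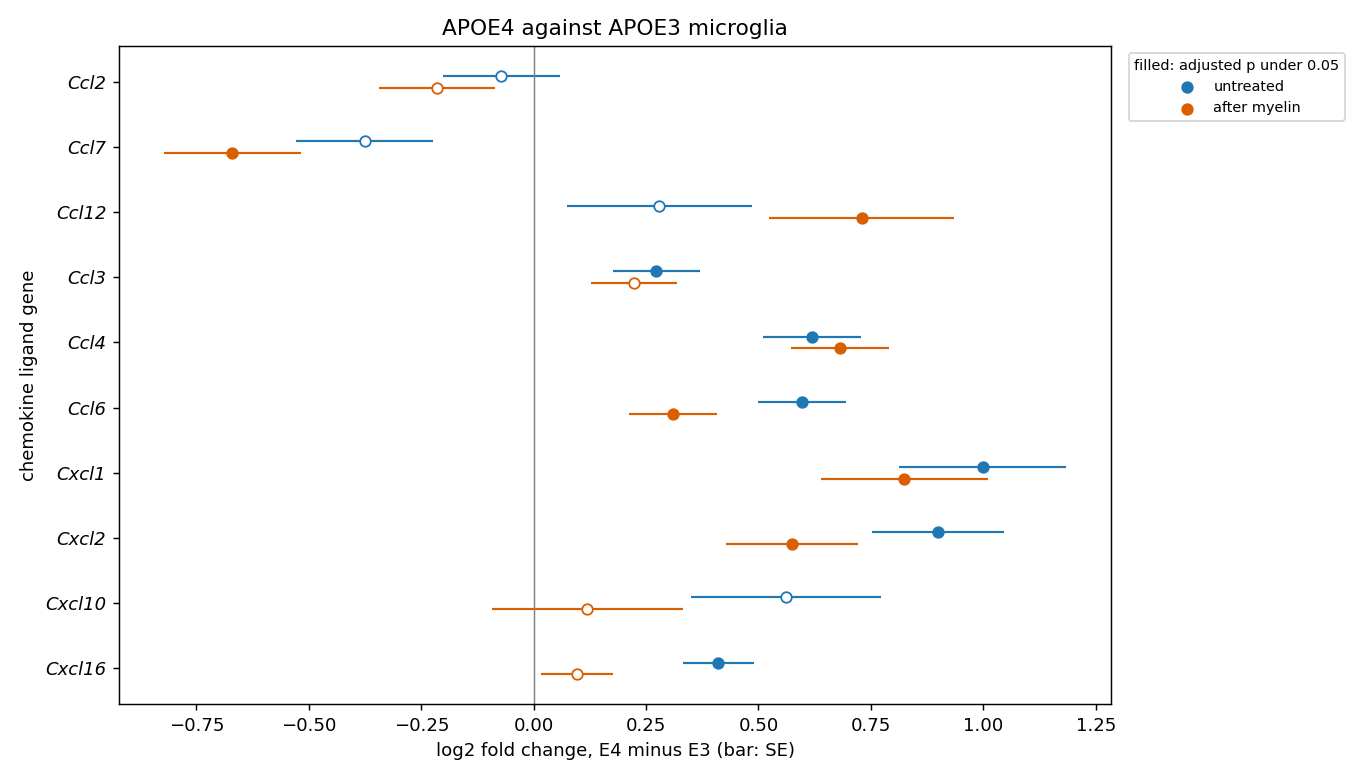
Log2 fold change of E4 against E3 for each ligand (x axis, with SE bars), untreated in blue and after myelin in orange, filled where the adjusted p is under 0.05. Cxcl1 lies at 0.999 and 0.82, Ccl4 at 0.62 and 0.68, and Ccl7 on the negative side at -0.38 and -0.67.

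Marker genes of other cells differed between the same groups. At rest 7 of 8 astrocyte markers were higher in E4, their sum being 949 to 1119 scaled TPM in the E3 libraries and 1728 to 2967 in the E4 libraries, and all 5 tested fibroblast and pericyte markers were lower, with sums of 354 to 525 and 106 to 190.3. None of the astrocyte or fibroblast markers was at 0 in all libraries of either group. Of the 10 microglia markers 4 were higher in E4 and 0 lower. The part of other cells in the E4 and E3 values was not tested.

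Cytokine and NF-kB genes stood higher in E4 than in E3 at rest, 10 of 19 tested with 0 lower. Over all genes 18.6% differed and 7.49% were higher. After myelin 6 of the 19 were higher in E4 than in E3, where 12.6% of all genes differed and 735 of 10894 were higher. Against untreated WT, 4 of the 19 were higher and 9 lower in E4, where 64.8% of all genes differed. In E3 1 was higher and 15 were lower than in WT, where 56.4% of all genes differed. Of all genes called against WT, 2838 of 7054 were higher in E4 and 2527 of 6142 in E3. Medians of the 19 against WT were -0.24 in E4 and -0.67 in E3. Il1b was at 232 ± 37.6 scaled TPM in E3 and 575 ± 104 in E4 (log2 fold change 1.30, SE 0.18, adjusted p = 2.28e-06). Tnf was at 77.8 ± 14.8 and 191 ± 22.9 (log2 fold change 1.30, SE 0.13, adjusted p = 3e-09). The NF-kB target genes Nfkbia (log2 fold change 0.97, SE 0.10, adjusted p = 9.72e-09) and Nfkbiz (log2 fold change 0.94, SE 0.15, adjusted p = 1.85e-05) were higher too. Of 17 interferon genes 5 were higher and 0 lower, led by Irf1 (log2 fold change 1.21, SE 0.13, adjusted p = 8.74e-09) and with Irf7 (log2 fold change 0.93, SE 0.26, adjusted p = 0.00829). Ccrl2, an atypical receptor that binds chemerin without signalling, was higher (log2 fold change 1.46, SE 0.14, adjusted p = 9.56e-10) among 2 of 7 receptors. Of 8 further ligands 0 were higher and 1 lower, Cxcl12, the ligand of Cxcr4 (log2 fold change -1.43, SE 0.21, adjusted p = 3.15e-06). Mmp2, which can cleave Cxcl12 and Ccl7, was lower (log2 fold change -1.69, SE 0.19, adjusted p = 2.19e-08), the 1 of 5 processing genes that differed. Medians over the NF-kB and cytokine list and the interferon list were 0.40 and 0.39, beside 0.00 over all genes.

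Against WT, untreated KO cells held less of 8 of the 10 ligands and more of 0, where 57% of all genes differed and 30.9% were lower, so a call here is common. Cxcl2 was lower in KO than in any WT library (log2 fold change -2.44, SE 0.14, adjusted p = 5.02e-17), as was Cxcl1 (log2 fold change -2.26, SE 0.18, adjusted p = 1.95e-13). Ccl7 (log2 fold change -1.68, SE 0.14, adjusted p = 2.07e-12), Cxcl10 (log2 fold change -1.51, SE 0.20, adjusted p = 4.33e-08), Ccl12 (log2 fold change -1.29, SE 0.19, adjusted p = 5.21e-07), Ccl2 (log2 fold change -1.26, SE 0.12, adjusted p = 4.84e-11) and Ccl6 (log2 fold change -0.90, SE 0.09, adjusted p = 1.95e-10) were lower without overlap. Ccl3 was lower with overlap (log2 fold change -0.36, SE 0.09, adjusted p = 0.00104). The share of all genes without overlap is not given for this comparison. Ccl4 (-0.19, adjusted p = 0.109) and Cxcl16 (0.16, adjusted p = 0.0748) did not pass, though the Cxcl16 groups were apart and Ccl4 passed without WT untreated replicate 1 (adjusted p = 0.0391). The median of the 10 ligands was -1.27 and that of all genes -0.03.

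After myelin the KO cells held less of 7 ligands and more of 2, where 55.9% of all genes differed. Cxcl1 (-2.29) and Cxcl2 (-2.28) were the lowest against WT, and the log2 fold change of Ccl2 was -0.57, Ccl7 -1.23, Ccl12 -0.62, Cxcl10 -0.94 and Ccl6 -0.46. Ccl4 (log2 fold change 0.38, SE 0.10, adjusted p = 0.00187) and Cxcl16 (log2 fold change 0.26, SE 0.08, adjusted p = 0.00341) were the higher ones. In the unweighted fit of 47 libraries 4 ligands passed after myelin. At rest fibroblast and pericyte markers summed to 735 to 1133 scaled TPM in the WT libraries and 31.6 to 652 in the KO libraries, with 5 of 5 tested lower, and border macrophage and monocyte markers to 879 to 1147 and 1589 to 1809, with 1 higher, 1 lower and 1 that did not pass of 3 tested and a median log2 fold change of -0.21. Of 3 tested endothelial markers 1 was higher and 2 were lower, and 2 of 3 neuron markers were lower. Their part in the result was not tested.

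Some NF-kB, cytokine, interferon and receptor genes were also called between KO and WT at rest. There 57% of all genes differed, so that a share near this says nothing of these lists. Of 19 NF-kB and cytokine genes 3 were higher and 9 lower, with Il1b at 855 ± 157 scaled TPM in WT and 198 ± 24.5 in KO (log2 fold change -2.09, SE 0.17, adjusted p = 1.09e-12), Tnf lower (log2 fold change -1.33, SE 0.12, adjusted p = 9.86e-12) and Nfkbia lower (log2 fold change -0.998, SE 0.10, adjusted p = 4.22e-11). Of 17 interferon genes 5 were higher and 1 lower, and Irf7 did not pass (log2 fold change -0.39, adjusted p = 0.165). Of 7 tested chemokine receptors 1 was higher and 4 were lower. Ccr1, at 21.1 ± 3.02 in WT and 2.35 ± 0.350 in KO, was lower (log2 fold change -2.72, SE 0.13, adjusted p = 7.37e-19). Of 8 further ligands 1 was higher, Cxcl14 (log2 fold change 2.30, SE 0.20, adjusted p = 5.16e-12), and 5 were lower, among them Ccl5, an attractant of T cells and monocytes (log2 fold change -1.57, SE 0.11, adjusted p = 3.67e-14).

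The humanized lines differed from WT in a mixed way. At rest E3 held more of 2 ligands and less of 4, where 56.4% of all genes differed, and E4 held more of 3 and less of 2, where 64.8% did. Cxcl10 was higher in both, with each humanized library above each WT library (log2 fold change 1.75, SE 0.21, adjusted p = 1.71e-08 in E3 and log2 fold change 2.31, SE 0.20, adjusted p = 3.06e-12 in E4). Ccl6 was lower in both by a wide gap (log2 fold change -2.17, SE 0.10, adjusted p = 1.89e-19 in E3 and log2 fold change -1.57, SE 0.09, adjusted p = 1.04e-16 in E4). Ccl4 was higher in both, by 0.45 in E3 and 1.07 in E4. Cxcl1 was higher in E4 (log2 fold change 1.08, SE 0.18, adjusted p = 1.79e-06), and E3 overlapped WT (log2 fold change 0.09, SE 0.19, adjusted p = 0.717). Cxcl2 went lower in E3 (log2 fold change -0.85, SE 0.15, adjusted p = 1.06e-05), and E4 overlapped WT (log2 fold change 0.05, SE 0.14, adjusted p = 0.756). Ccl7 was lower in E4 (log2 fold change -0.76, SE 0.14, adjusted p = 1.99e-05) and in E3 (log2 fold change -0.38, SE 0.15, adjusted p = 0.0302), the latter lost without WT untreated replicate 2, 3 or 4 or E3 untreated replicate 1 or 3 (adjusted p = 0.0691 to 0.099). Cxcl16 was lower in E3 (log2 fold change -0.41, SE 0.08, adjusted p = 5.45e-05). In E3, Ccl12 and Ccl3 missed the threshold (-0.42, adjusted p = 0.0802, and -0.19, adjusted p = 0.0873). They passed without E3 untreated replicate 4 (adjusted p = 0.0119) and without WT untreated replicate 1 (adjusted p = 0.0222), in that order. Ccl2 was near WT in E3 (0.07, 95% interval -0.18 to 0.32) and in E4 (0.00, -0.24 to 0.24).

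**Figure D4:**
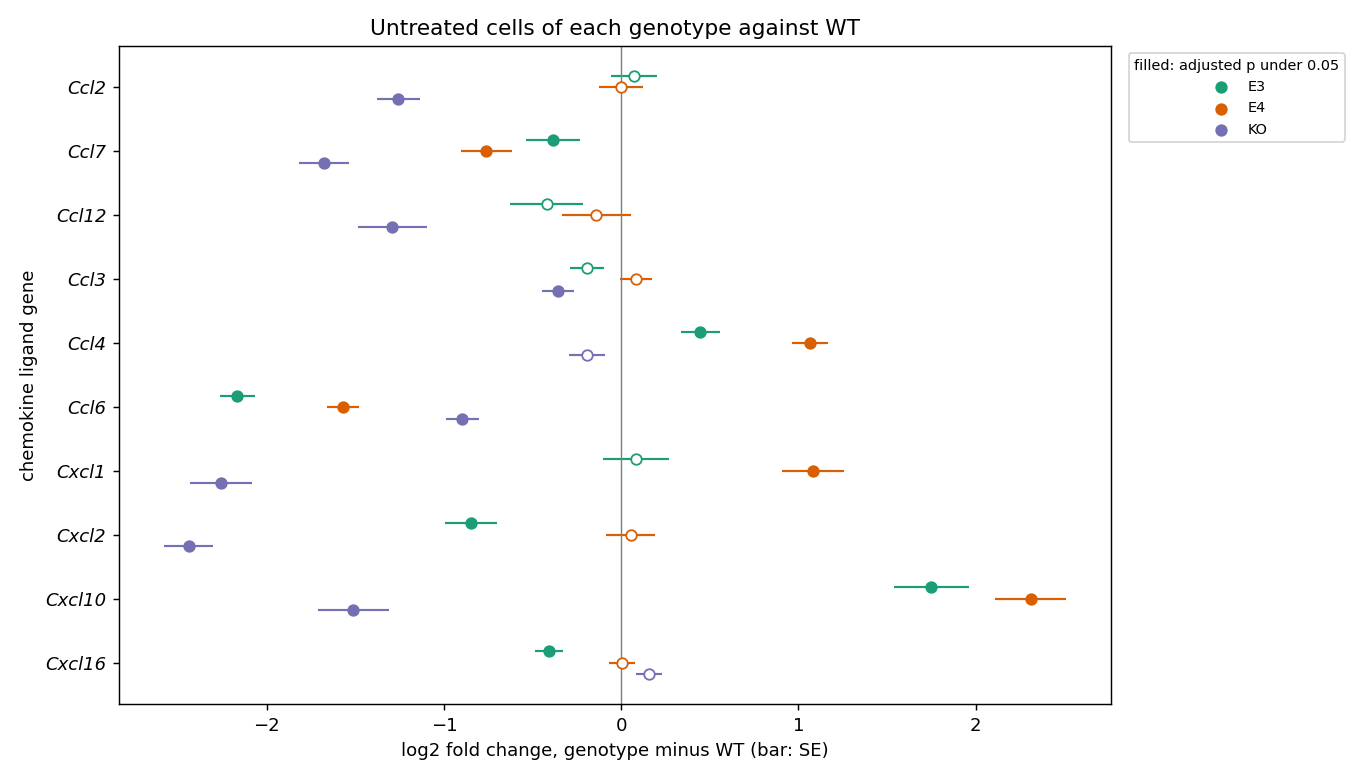
Log2 fold change of untreated E3, E4 and KO cells against untreated WT for each ligand (x axis, with SE bars), filled where the adjusted p is under 0.05. Cxcl10 lies at 1.75 in E3, 2.31 in E4 and -1.51 in KO, and Cxcl2 at -2.44 in KO.

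After myelin E3 held more of 2 ligands and less of 7, where 36.1% of all genes differed, and E4 more of 3 and less of 3, where 54.4% did. Ccl6 stayed lowest against WT, at -2.23 in E3 and -1.92 in E4, and Cxcl10 stayed above WT, at 1.06 and 1.18. Ccl7 was lower in E4 (log2 fold change -1.45, SE 0.14, adjusted p = 1.02e-10) and E3 (log2 fold change -0.78, SE 0.15, adjusted p = 0.000106), and Ccl2 in E4 (log2 fold change -0.57, SE 0.12, adjusted p = 0.000167). In E3, calls were lost for Ccl2 without WT myelin replicate 4 or E3 myelin replicate 1, 3 or 4 (adjusted p = 0.056 to 0.131), for Ccl3 without WT myelin replicate 1 or 2 or E3 myelin replicate 2 or 3 (adjusted p = 0.0506 to 0.0855), for Ccl4 without WT myelin replicate 3, 4 or 5 or E3 myelin replicate 1 or 4 (adjusted p = 0.0668 to 0.192) and for Cxcl16 without E3 myelin replicate 4 (adjusted p = 0.0688). In E4, Cxcl16 passed without WT myelin replicate 3 (adjusted p = 0.0312). In the unweighted fit of 47 libraries 3 ligands passed in E3 at rest and 4 after myelin. With the coding total alone 2 ligands were higher and 4 lower in E3 after myelin. Ccl2, Ccl3 and Cxcl16 then did not pass (adjusted p = 0.123, 0.0999 and 0.0711). Of all called genes 2256 of 3544 were then higher in E3 after myelin in place of 1730 of 3930. In E4 it was 3218 of 5563 in place of 2621 of 5925. At rest this scaling lost Ccl7 in E3 (adjusted p = 0.1) and gained Ccl3 in E4 (adjusted p = 0.0476). Astrocyte markers stood far above WT in both lines (7 of 8 higher in each, at rest), with sums of 134 to 158 scaled TPM in the WT libraries, and 3 of 3 tested border macrophage and monocyte markers were lower in each. Of 3 tested neuron markers 3 were higher in each line, and of 3 endothelial markers 1 was higher and 2 were lower in each. Their part in the Cxcl10 and Ccl6 values was not tested.

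Het cells, with 1 intact Apoe allele, gave scattered values, and the calls in their myelin response were not firm. Ccl2 was 74.4, 34.2, 35.1, 93.5 and 14.8 scaled TPM untreated and 48.97, 16.6, 17.01 and 46.04 after myelin, and Cxcl16 419, 432, 389, 401 and 135 and 331, 230.3, 373 and 363. Untreated replicate 5, with 0.468% of TPM on coding genes, was lowest of the untreated libraries for each of the 10 ligands, and the libraries under 6% were untreated replicates 3 and 5 and myelin replicates 1 and 2. In a fit with library weights, 4 ligands fell with myelin and 0 rose, where 18.6% of all genes changed and 15.1% fell. They were Ccl2 (-1.78), Ccl7 (-1.25), Ccl12 (-1.23) and Cxcl1 (-0.88), and the groups overlapped for each. The mean level went from 50.4 ± 32.4 to 32.1 ± 17.8 scaled TPM for Ccl2 and from 18.96 ± 9.90 to 18.6 ± 6.47 for Cxcl1. Without myelin replicate 3 these fold changes were -0.74, -0.59, -0.77 and -0.16 (adjusted p = 0.44, 0.633, 0.594 and 0.931), and without myelin replicate 1 Ccl2 was at -0.89, Ccl7 at -0.79 and Cxcl1 at -0.41. Without untreated replicate 1 Ccl2 was at -1.13. In an unweighted fit Ccl2 was at -0.54, Ccl7 at -0.26, Ccl12 at -0.85 and Cxcl1 at 0.079. The count was 0 without untreated replicate 1, myelin replicate 1 or myelin replicate 3, 2 without myelin replicate 4 and 8 without untreated replicate 4. Without the 4 libraries under 6% it was 0. Against WT at rest 2 ligands were higher and 6 lower, where 58.8% of all genes differed, and after myelin 2 were higher and 7 lower, where 66.5% did. The count at rest was 3 without untreated replicate 1, and that after myelin was 3 without myelin replicate 1 and 5 without myelin replicate 3. Ccl2, Ccl7 and Ccl6 were lower in Het than in WT in both states. They kept these calls in all 10 refits at rest and all 9 after myelin that left out 1 library. Ccl7 at rest was below each WT library in each Het library, 20.7, 15.2, 11.5, 34.5 and 2.95 scaled TPM against a WT range of 62.5 to 96.2 (log2 fold change -1.87, SE 0.21, adjusted p = 2.15e-10). The median over all genes was -0.11 in the Het myelin response, -0.15 against WT at rest and -0.20 after myelin, and Het values stand relative to it.

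Summed over the 10 ligands, untreated cells held 2227 ± 211 scaled TPM in WT (SD, n = 5), 1871 ± 234 in E3 (n = 4), 2602 ± 202 in E4 (n = 5) and 1444 ± 75.7 in KO (n = 5). After myelin the sums were 1827 ± 176, 1459 ± 113, 1885 ± 108 and 1619.5 ± 53.2. E4 had the largest sum at rest and the KO sum was the only one of these 4 that was higher after myelin. Ccl3, Ccl4, Cxcl2 and Cxcl16 together made up most of the sum in each of the 10 groups. In untreated E4 cells Ccl4 held 28.3% and Cxcl2 17.5% of it, and in E3 cells 25.7% and 13.2%. The sum is a description of levels and has no test.

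**Figure D5:**
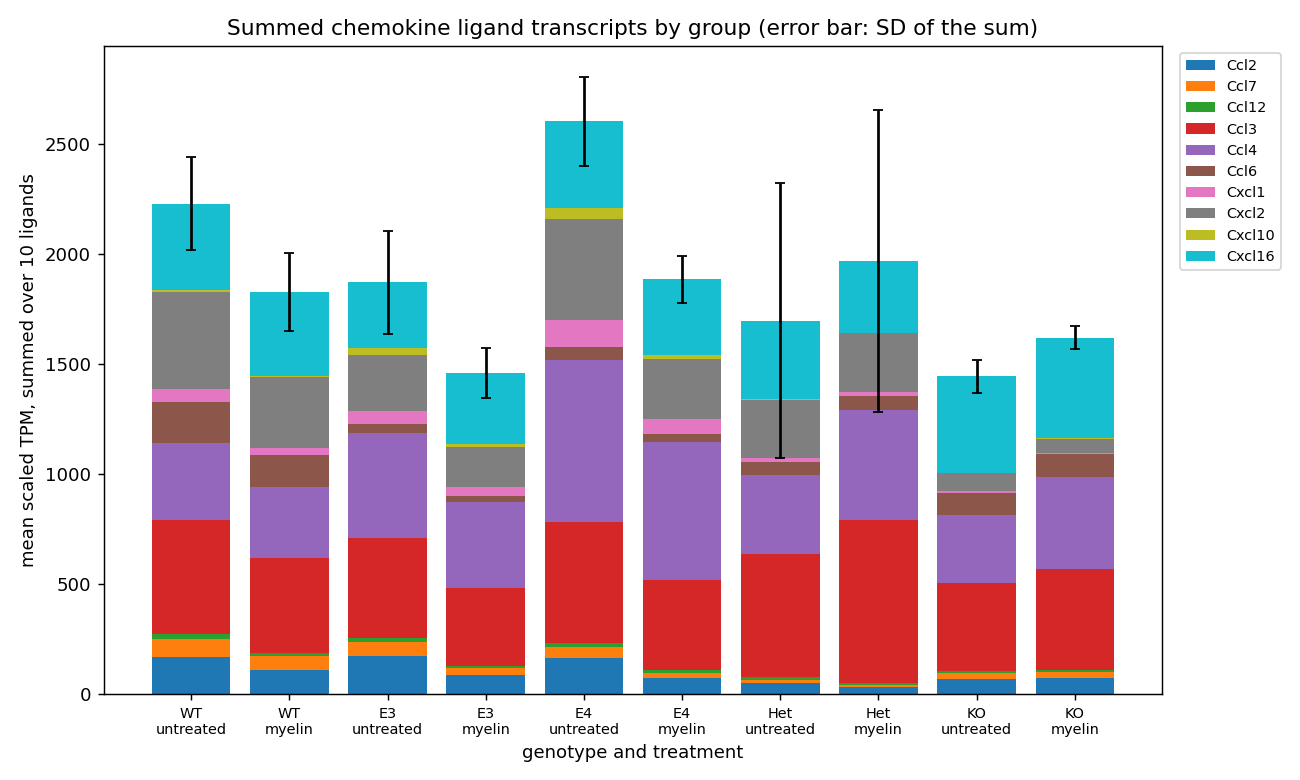
Mean scaled TPM of the 10 ligands stacked by group (y axis starts at 0), with the SD of the summed level as an error bar. Untreated E4 cells reach 2602 and untreated KO cells 1444, and the Het groups have the widest bars.

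Across the 38 libraries of WT, E3, E4 and KO the ligands fell into loose sets, given as a description, since the libraries share groups. Of all pairs on the log2 scale the highest were Cxcl1 and Cxcl2 with Pearson r = 0.92, Cxcl1 and Cxcl10 0.88, and Ccl2 and Ccl7 0.87. Cxcl10 and Cxcl16 were lowest at -0.58. Once each group's mean was taken out, Ccl3 and Ccl4 had r = 0.76, Ccl2 and Ccl7 0.66, Ccl3 and Cxcl2 0.65, and Cxcl1 and Cxcl2 0.45. The tested genes outside the 10 with the most similar pattern over these libraries were Ppp1r15a (r = 0.96) and Socs3 (0.96) for Cxcl2, Fcgr3 (0.95) and Tifab (0.95) for Ccl6, Npdc1 (0.95) and Egln3 (0.95) for Cxcl1, Cp (0.95) and Gbp2 (0.94) for Cxcl10, and Ptges (0.89) and Nectin2 (0.88) for Ccl7. For Ccl4 they were Fuz (0.89) and Gm26880 (0.87), for Cxcl16 Uba7 (0.89) and Mif4gd (0.88), for Ccl2 Dusp16 (0.79) and Tmem119 (0.78), for Ccl12 Srgn (0.78) and Tnfsf9 (0.77), and for Ccl3 Zfp36l1 (0.77) and Glul (0.70).

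Sequence sharing between genes limits 2 of the members. In the GENCODE transcripts, 7.59% of the 31-base words of Cxcl2 also occur in Cxcl3, its near copy, which had a mean of 4.53 scaled TPM in untreated WT against 439 ± 67.6 for Cxcl2. Ccl6 shares 1.02% with Slc17a4, and the other 8 share none. Cxcl10 overlaps Art3 and Cxcl16 overlaps Zmynd15 on the opposite strand, and whether the authors' quantification used the strand is not given in the sources used here, so reads of those partners cannot be told apart.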

How the data were processed

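Polyadenylated RNA was amplified with a low-input kit and sequenced, per the labels' protocols. The authors deposited TPM for 53697 genes and 47 libraries. Salmon 0.13.1, limma 3.40.6 and mm10 are named in the submitters' processing notes, with no role. Which annotation release was used is not given in the sources used here. TPM hold no depth, so no counting interval is given.

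Nuclear protein-coding genes were rescaled to 1000000 per library and scaled by a trimmed mean of log ratios (trims of 30% for ratios and 5% for levels). Tests covered 10614 protein-coding and 280 lincRNA genes that reached 5 scaled TPM in 4 or more libraries; genes of the mitochondrial genome were left out. limma 3.58.1 in R 4.3.3, with a trend and a pseudocount of 1, was fitted without weights to the 38 libraries of WT, E3, E4 and KO. Het comparisons came from all 47 libraries with arrayWeights, whose estimate stopped before its tolerance in some refits. Tests were two-sided, adjusted by Benjamini-Hochberg. Apoe was compared by an exact permutation test. Replicates correlated between 0.792 and 0.989.

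The 10 members and the gene lists were chosen with earlier results of these data known. All members are named. A gene of another list is named where its change was the largest in that list in either direction. This was read in the E3 and E4 myelin responses and in E4 against E3 untreated. Others named are among 20 set receptors, proteases, ligands and NF-kB, cytokine or interferon genes. Cxcl3 is named for sequence it shares with Cxcl2, and Gm23935 for its share of the TPM. The 2 genes of highest Pearson correlation with each member are named. Alternatives were the coding total alone, a pseudocount of 5, no filter, weights the other way, all 47 libraries unweighted, a replicate block, leaving out each library, and a coding share covariate chosen after seeing the data. Promoters came from RefSeq. Figures were drawn with matplotlib.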

Additional observations from a re-analysis of the deposited data

Results flagged for a closer look

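Of 100 groups of 4 or 5 libraries, 1 for each ligand in each group, 10 held a library far from the others of its group. Chance flags about 1 in 20 groups. Ccl2 was 146 scaled TPM in WT myelin replicate 4, with the next library at 109. Ccl7 was 52.2 in E4 untreated replicate 4, next to 47.8. Ccl12 was 10.4 in WT myelin replicate 3, under the next at 17.4, and 25.4 in E3 untreated replicate 4, above the next at 14.9. Ccl6 was 30.2 in E4 myelin replicate 2, under 37.3. Cxcl1 was 19.9 in KO untreated replicate 5, above 11.1. Cxcl10 was 47.2 in E3 untreated replicate 4, above 30.7, and 21.8 in E3 myelin replicate 2, above 14.03. Cxcl16 was 343 in E4 untreated replicate 4, under 401, and 135 in Het untreated replicate 5, under 389. E3 untreated replicate 4 stood high for Ccl12 and Cxcl10, and E4 untreated replicate 4 stood high for Ccl7 and low for Cxcl16.

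In 7 cases a ligand passed the limma interaction test for a myelin response that differed between genotypes. For E4 and WT, where 6.97% of all genes passed, the log2 differences were -0.57 for Ccl2, -0.68 for Ccl7 and -1.14 for Cxcl10. For KO and WT, where 5.71% passed, they were 0.68 for Ccl2, 0.46 for Ccl3, 0.58 for Ccl4 and 0.43 for Ccl6. Both sets use the same WT libraries, and 0 of the 7 passed in the unweighted fit of all 47 libraries. In refits without 1 library, Ccl2 between E4 and WT was lost in 12 of 20 and Ccl7 in 7 of 20. Between KO and WT, Ccl3 was lost in 7 of 20 and Ccl6 in 13 of 20. The other calls were kept.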

How the results depend on the processing

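Of 190 log2 fold changes of single ligands, 180 kept their side of the threshold with the coding total alone, 186 with a pseudocount of 5, 168 with no filter on low values, 170 with library weights the other way, 179 with the replicate block and 177 with the coding share covariate, which was chosen after seeing the data. Values that had not passed changed sign in 3, 1, 2, 7, 3 and 8 cases in these fits, in that order. In the unweighted fit of all 47 libraries 113 of 160 did and 47 lost their call, and of 2180 values that each left out 1 library 2027 did, 130 lost and 23 gained a call. Without 1 library 52 values that had not passed changed sign, and 0 that had passed. With weights the other way 3 Het values reversed, Cxcl1 in the myelin response to 0.079 (adjusted p = 0.911), and Ccl3 and Ccl4 against WT untreated to -0.048 and -0.13 (adjusted p = 0.867 and 0.676). With the coding total alone 2 ligands were called in the KO and WT difference. With no filter 1 was called in the E4 and WT difference, 0 in the KO and WT difference and 0 in the Het myelin response. That Het count was also 0 with weights the other way, without the Het libraries of low coding share and with the covariate, which left 0 in the E4 and WT difference and 2 in the KO and WT difference. In the unweighted fit of all 47 libraries the counts were 0 in the WT, E3 and KO myelin responses, 2 in E4 against E3 untreated and 0 after myelin, 4 in KO against WT after myelin, 3 in E3 against WT untreated and 4 after myelin, and 0 in the E4 and WT and the KO and WT differences. Apart from the construction of each fit, the cause was not tested.

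Whether replicate numbers pair the samples could not be settled, since weak correlations do not exclude a shared source. Of 23 same-numbered pairs within genotypes 5 had a correlation of deviations over 0.1, the range was -0.547 to 0.455, and 3 libraries correlated best with their own number. With the replicate block 2 ligands were called in the KO and WT difference, and the other 18 counts of ligands stayed within 1.5 times.

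Leaving out 1 library gave 2 to 6 called ligands in the WT myelin response, 4 to 7 in E3, 7 to 8 in E4, 1 to 2 in KO and 0 to 8 in Het. It gave 5 to 6 in E4 against E3 untreated and 4 to 7 after myelin, 8 to 9 and 9 to 9 in KO against WT, 5 to 7 and 6 to 8 in E3 against WT, 5 to 5 and 6 to 7 in E4 against WT, and 3 to 9 and 3 to 9 in Het against WT. The differences gave 0 to 0 for E4 and E3, 0 to 0 for E3 and WT, 1 to 4 for E4 and WT and 2 to 5 for KO and WT.

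Counts over all genes moved by more than 1.5 times as follows. The myelin response of WT (708 genes) gave 468 with no filter, 262 with 47 libraries and 295 to 1038 without 1 library. E3 (803) gave 492, 5 and 157 to 964, and 2062 with weights. E4 (1539) gave 224 with 47 libraries, 963 to 1781 without 1 library, 2518 with weights and 704 with the covariate. KO (418) gave 13, 236 to 461 and 783 with weights. Het (2024) gave 124 with no filter, 29 without weights, 0 without the low libraries, 768 with the block, 5 with the covariate and 0 to 7034 without 1 library. E4 against E3 gave 657 with 47 libraries untreated (2029), and 472, or 3077 with weights, after myelin (1377). The 47 libraries gave 4044 in KO against WT after myelin (6087), 3916 in E3 against WT untreated (6142), 1961 after myelin (3930) and 3777 in E4 against WT after myelin (5925). Het against WT after myelin (7247) gave 3474 without the low libraries, 3916 with the covariate and 1513 to 7641 without 1 library, and untreated (6402) 1377 to 8369. The E4 and E3 difference (1) gave 0 to 2 except for 68 with weights and 28 with the covariate. The E3 and WT difference (491) gave 215 with the coding total, 210 with no filter, 1201 with weights, 0 with 47 libraries, 748 with the block, 202 with the covariate and 77 to 1012 without 1 library. The E4 and WT difference (759) gave 385 with no filter, 1195 with weights, 3 with 47 libraries, 116 with the covariate and 372 to 1099. The KO and WT difference (622) gave 192 with the coding total, 192 with no filter, 1408 with weights, 5 with 47 libraries, 346 with the covariate and 212 to 1101. Depth is unknown from TPM, so counting error could not be given.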
